A study of Mus musculus with 14 samples.

Results

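The proteasome genes described here are those whose symbol is Psma, Psmb, Psmc, Psmd or Psme followed by a number, leaving out the inducible catalytic genes Psmb8, Psmb9 and Psmb10. The rule found 39 genes among the 23682 genes present in both deposited tables. They comprise 8 genes of the alpha ring, 7 of the beta ring, 6 of the ATPase ring, 3 other subunits of the base, 8 of the lid, 3 assembly chaperones of the base and 4 activators. Psmb11, the thymic beta subunit, was not among the genes present in both tables. All 39 passed the filter on low counts that left 18810 genes to test.

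The measurements are bulk RNA sequencing of whole kidneys from 14 mice, all given doxycycline in the drinking water. In 5 i-TERTci mice injected with GSK2830371, an inhibitor of the phosphatase WIP1, the kidneys were taken at 28, 31 or 49 days on doxycycline. In 5 i-TERTci mice injected with DMSO, the vehicle, they were taken at 29, 31 or 38 days. The 4 control mice carried the actin-rtTA transgene alone and were taken at 30 days. The i-TERTci mice carried actin-rtTA and tetop-TERTci, each in the heterozygous state, so that doxycycline switched on TERTci in every tissue and not in a chosen kidney cell type. Their daily intraperitoneal injections began at about day 15, when proteinuria exceeded 10 mg/mL, whereas the controls had no recorded injection. Genotype and injection therefore differ together in each comparison with the controls and cannot be told apart.

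The proteasome is the protease that degrades ubiquitin-tagged proteins. Its core particle is a stack of rings, in which alpha subunits form the gated outer rings and beta subunits the inner rings that hold the proteolytic sites. The regulatory particle sits on the core: its base carries a ring of ATPases that unfold substrates, and its lid holds the deubiquitinase that removes the ubiquitin chain. The transcription factor NRF1, encoded by Nfe2l1, is known for raising subunit genes together when proteasome activity is short.

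Promoters of the subunit genes are shown for 4 members chosen for the size or direction of their difference or for a motif match, each as the 300 bases around the start site in RefSeq (GRCm38.p6). Psmd14 (chr2:61711444-61711743, plus strand) and Psmc6 (chr14:45329574-45329873, plus strand) rose in both i-TERTci groups, Psmb5 (chr14:54617946-54618245, minus strand) rose in the DMSO group, and Psme3 (chr11:101315963-101316262, plus strand) fell in both. Capitals mark CCAAT or its reverse complement in Psmd14 and Psme3, and TGACNNNGC or its reverse complement in Psmc6 and Psmb5.
Psmd14: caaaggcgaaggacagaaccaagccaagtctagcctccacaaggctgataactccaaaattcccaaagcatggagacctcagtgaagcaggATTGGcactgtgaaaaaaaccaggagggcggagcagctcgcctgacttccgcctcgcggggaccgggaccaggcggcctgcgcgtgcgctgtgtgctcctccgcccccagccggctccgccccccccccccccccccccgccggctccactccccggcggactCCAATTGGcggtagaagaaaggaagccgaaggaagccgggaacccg
Psmc6: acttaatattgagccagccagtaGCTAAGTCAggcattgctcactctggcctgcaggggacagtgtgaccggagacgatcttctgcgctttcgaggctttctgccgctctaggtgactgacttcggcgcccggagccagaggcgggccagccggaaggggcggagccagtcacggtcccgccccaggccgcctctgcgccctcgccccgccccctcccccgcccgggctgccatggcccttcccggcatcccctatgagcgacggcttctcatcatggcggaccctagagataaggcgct
Psmb5: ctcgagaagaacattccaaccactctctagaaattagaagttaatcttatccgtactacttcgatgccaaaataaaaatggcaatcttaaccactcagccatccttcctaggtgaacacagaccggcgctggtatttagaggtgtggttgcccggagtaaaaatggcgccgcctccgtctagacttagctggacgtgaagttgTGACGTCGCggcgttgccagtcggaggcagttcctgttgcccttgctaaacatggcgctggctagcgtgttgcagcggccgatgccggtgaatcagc
Psme3: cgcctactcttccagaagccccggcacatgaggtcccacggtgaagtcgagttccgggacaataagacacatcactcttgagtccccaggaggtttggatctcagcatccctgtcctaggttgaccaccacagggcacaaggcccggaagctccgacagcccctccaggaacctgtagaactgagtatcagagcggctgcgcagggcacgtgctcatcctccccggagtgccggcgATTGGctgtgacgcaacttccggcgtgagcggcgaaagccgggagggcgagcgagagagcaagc

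Of the 39 members, 32 had a promoter in that table, 35 promoters in all. The motif TGACNNNGC, the core of the element that NRF1 and its relatives bind, was found on either strand in 6 of the 35, or 17.1%, beside 12.4% of all 32851 promoters of the same length. CCAAT, which the factor NF-Y binds, was found in 12 of 35 (34.3%) beside 37.4%. CCGGAA, the core of sites for ETS factors, was found in 18 of 35 (51.4%) beside 14.9%, and the GC-box core GGCGGG in 24 of 35 (68.6%) beside 35.3%. None of the 4 motifs contains another. Among the 22 promoter-bearing members that were higher in DMSO kidneys, 3 held TGACNNNGC, 9 CCAAT, 13 CCGGAA and 15 GGCGGG, and among the 9 that passed in neither direction 3, 2, 3 and 9 did. A match describes letters in the window and was not tested as a site.

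The libraries held 48434771 to 49422279 reads in genes in the GSK2830371 group and 47194888 to 48846771 in the DMSO group, against 48469086 to 64581825 in the controls. Tert, the induced gene, had normalised counts of 231 to 2546 in GSK2830371 kidneys and 574 to 2732 in DMSO kidneys, against 117 to 183 in controls. Mitochondrial genes took 5.07% to 8.35% of the reads in GSK2830371 libraries and 4.95% to 9.52% in DMSO libraries, against 14.4% to 24.2% in controls. The first principal component (54.1% of the variance) set all 4 controls apart from the other 10 libraries. The control libraries also differed in mt-Nd6, a mitochondrial gene encoded on the strand opposite to the other mitochondrial protein genes, which had 6181 to 17914 normalised counts in GSK2830371 kidneys and 6913 to 11895 in DMSO kidneys, against 173 to 658 in controls. Whether the control libraries were prepared and counted like the others is not given in the sources used here, and a difference of that kind cannot be told apart from group in any comparison with the controls. How strand was treated in counting is not given in the sources used here, and 9 members overlap exons of a gene on the other strand, by 1849 bases in Psmd9, by 405 in Psmb7, and by 14 to 342 in Psma4, Psma5, Psmc3, Psmd1, Psmd3, Psmd13 and Psme1. All 4 controls were Xist-positive, as were 3 GSK2830371 and 2 DMSO libraries. The part of these differences in the results below was not tested, except where a value is given.

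Many proteasome genes were higher in i-TERTci kidneys than in controls, under either injection. In GSK2830371-treated kidneys, 17 of the 39 rose in limma at an adjusted p below 0.05, 4 fell (Psmb2, Psmc4, Psmd3 and Psme3) and 18 did not pass, while 24.3% of all genes tested were called higher and 22.1% lower. The median log2 change of the members was 0.45, beside 0.01 over all genes. In DMSO-treated kidneys, 24 rose, 3 fell (Psmb2, Psmd3 and Psme3) and 12 did not pass, beside 25.2% and 23.1% of all genes. There the median log2 change was 0.71, beside 0.03 over all genes. Of the 39, 20 were called in both comparisons, 1 (Psmc4) with GSK2830371 alone, 7 with DMSO alone and 11 in neither; the difference between the treatments is tested below. Both comparisons use the same 4 controls, so their values stand side by side and are not independent.

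In the GSK2830371 comparison the libraries did not overlap for 17 members above the controls and 4 below, beside 20.8% and 19.6% of all genes. In the DMSO comparison this held for 18 members above and 1 below (Psmd3), beside 20.0% and 18.8%. Fewer cells of a type and less RNA per cell cannot be told apart in whole kidney. With the 2 Xist-positive DMSO libraries alone against the 4 controls, 12 members were called higher in place of 24, and 3098 of all genes in place of 4742. With Xist as a covariate these counts were 16 members and 3579 genes. Centring the changes within bins of transcript GC content left 2 members called lower in GSK2830371 kidneys (Psmb2 and Psme3) in place of 4, and 1 in DMSO kidneys (Psmb2) in place of 3. Of all genes, 3350 were then called lower in GSK2830371 kidneys in place of 4148, and 3598 in DMSO kidneys in place of 4337.

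**Figure D1:**
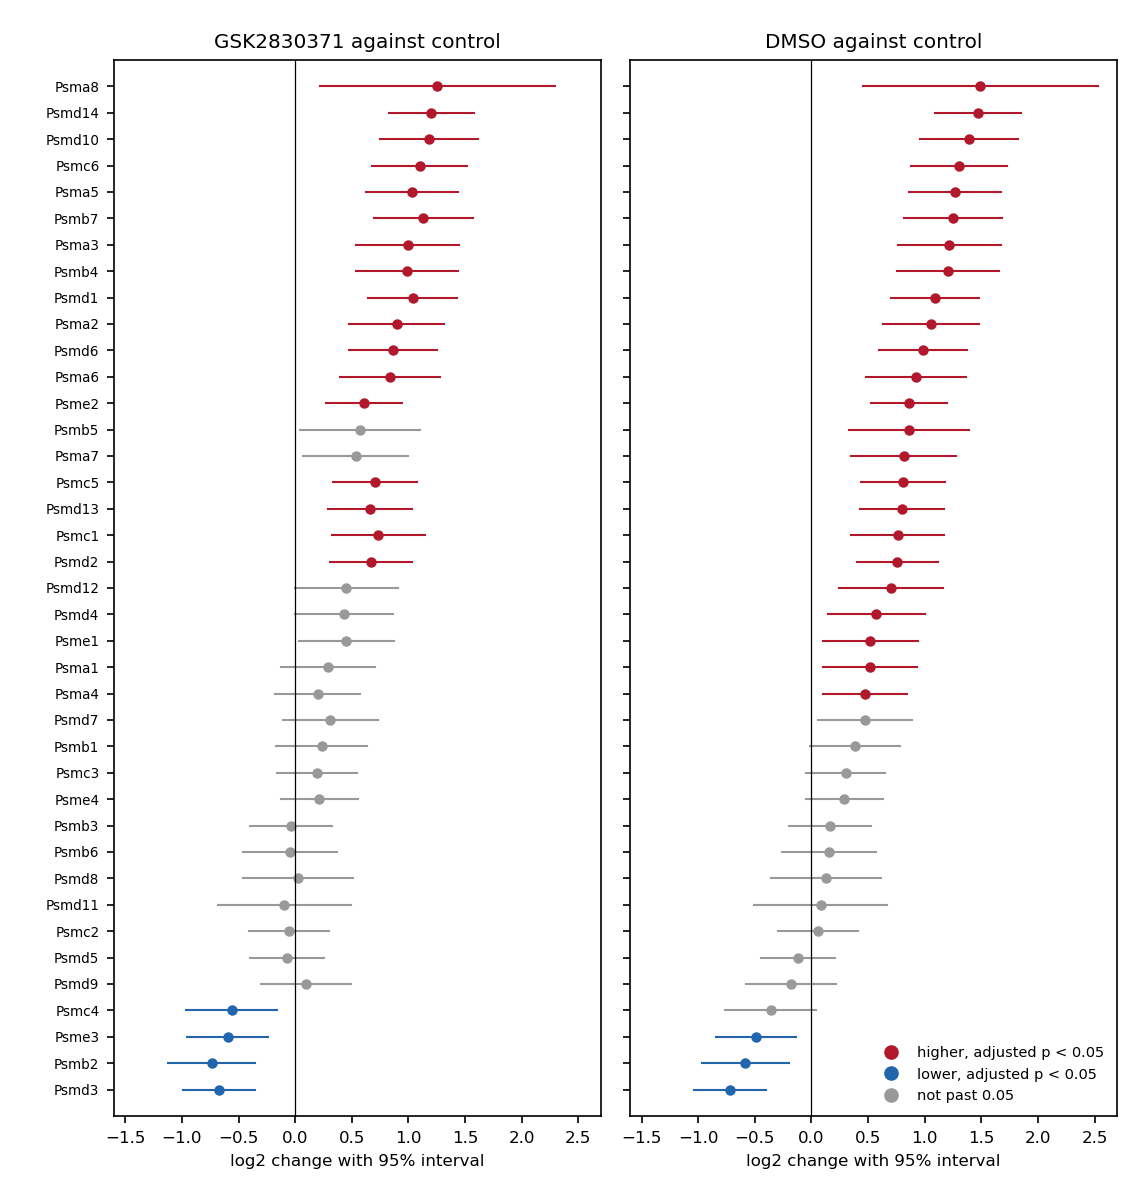
Log2 change of each of the 39 proteasome genes, GSK2830371 against control (left) and DMSO against control (right), with 95% intervals from limma and ordered by the DMSO change. Red marks 17 members higher in the left panel and 24 in the right, blue marks 4 and 3 lower, and grey the others.

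The members rose to different degrees in different animals. Relative to the control mean, the median member stood at 0.72, 0.73, 0.37, 0.22 and 0.29 (log2) in GSK2830371 replicates 1 to 5 and at 1.08, 0.49, 0.64, 0.84 and 0.13 in DMSO replicates 1 to 5, against 0.04, -0.07, 0.14 and -0.13 in the controls. DMSO replicate 1 was the highest library, and DMSO replicate 5 lay below control replicate 3. The members together took 0.323% to 0.359% of the reads in GSK2830371 libraries and 0.319% to 0.402% in DMSO libraries, against 0.197% to 0.270% in controls. Every i-TERTci library lay above every control in that share, which also depends on the mitochondrial share given above. The summed normalised count of 8 leukocyte markers was 4924 to 12603 in GSK2830371 kidneys and 5822 to 18655 in DMSO kidneys, against 4703 to 5481 in controls. It was highest in DMSO replicate 1, where S100a8 and S100a9 gave 8848 and 7760 of the 18655 counts. Of these markers 3 were called higher in each comparison (Ptprc, S100a8 and S100a9), and 1 lower in DMSO kidneys (Csf1r). Of all genes, 24.3% were called higher in GSK2830371 kidneys, and 25.2% higher and 23.1% lower in DMSO kidneys. In each comparison 5 log2 changes were positive and 3 negative (Csf1r, Cd3e and Cd79a), so the sum does not describe every marker. S100a8, a neutrophil marker, had 84 to 5274 and 149 to 8848 counts in GSK2830371 and DMSO kidneys, against 0 to 21 in controls. Csf3r, another of the 8 leukocyte markers, had 113 to 204 and 112 to 945 counts, against 100 to 211 in controls. It overlapped and passed in neither comparison (adjusted p = 0.641 and 0.0579 in GSK2830371 and DMSO kidneys). The sum of 10 nephron markers was 437913 to 724787 in GSK2830371 kidneys and 463965 to 1007780 in DMSO kidneys, against 705953 to 1045360 in controls. In each comparison 4 of the 10 were called lower (Atp6v1b1, Lrp2, Slc12a3 and Slc34a1), beside 22.1% and 23.1% of all genes. Cdh16 was called higher in GSK2830371 kidneys. Slc34a1 fell most (log2 -2.17 and -2.14 in GSK2830371 and DMSO kidneys). The log2 change was positive for 5 of the 10 in GSK2830371 and 4 in DMSO kidneys, so this sum does not describe every marker. The lowest value of any nephron marker in any library was 923 counts, that of Nphs1, a podocyte gene. What these cell markers contribute to the proteasome changes was not tested.

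**Figure D2:**
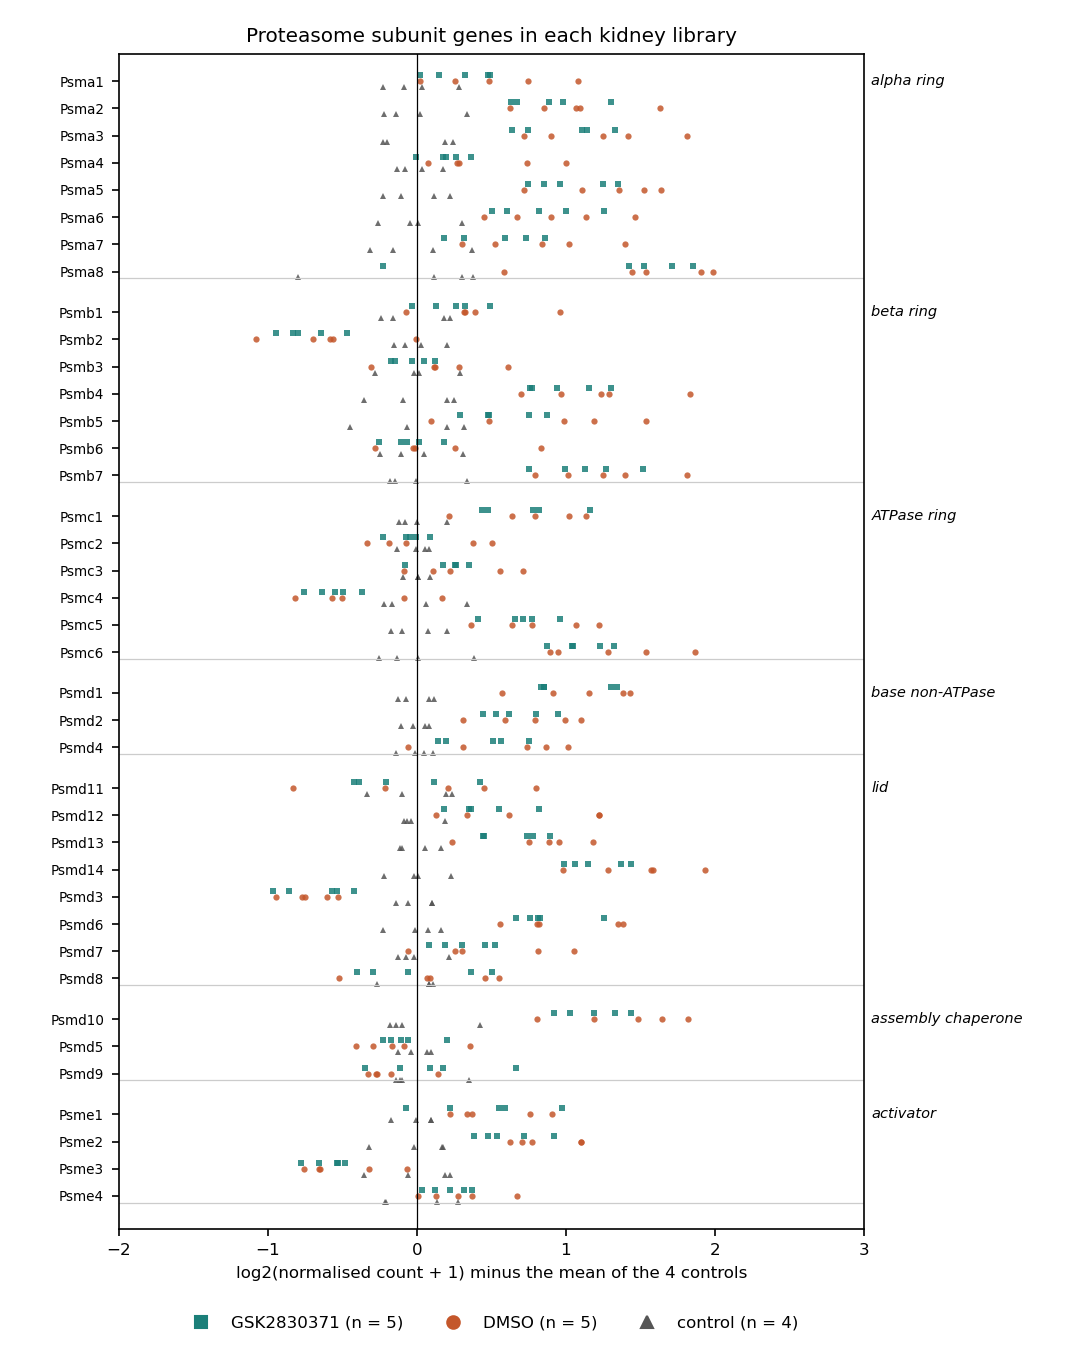
Each point is 1 library: the log2 normalised count of a proteasome gene minus the mean of the 4 controls, for 39 genes grouped by subcomplex (squares GSK2830371, circles DMSO, triangles control). The alpha ring lies right of 0 in nearly all i-TERTci libraries, while Psmb2, Psmd3 and Psme3 lie left of it.

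**Figure D3:**
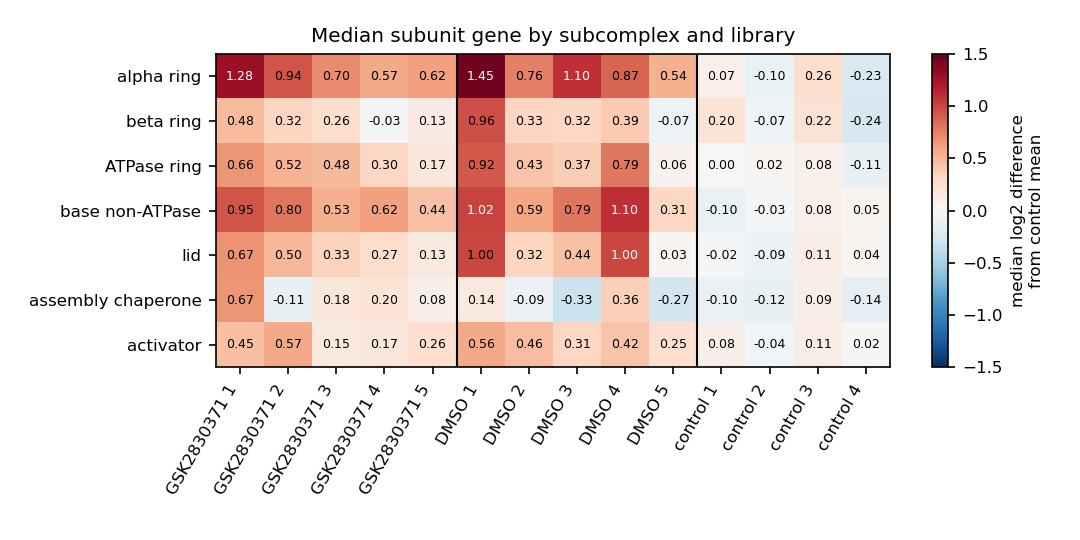
Median log2 difference from the control mean over the genes of each subcomplex (down the page) in each of the 14 libraries (across), with values printed in the cells. DMSO replicate 1 has the highest alpha ring median and DMSO replicate 5 the lowest of the i-TERTci libraries.

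Most of the alpha ring was higher in i-TERTci kidneys. Of its 8 genes, 5 were called higher in GSK2830371 kidneys, with a median log2 change of 0.87, and all 8 in DMSO kidneys, with a median of 0.99. Those not passing under GSK2830371 were Psma1 (0.29), Psma4 (0.20) and Psma7 (0.54), of which Psma7 passed after GC centring (log2 0.63, adjusted p = 0.0415). After centring within GC bins, 4 of 8 were called higher in GSK2830371 kidneys and 5 of 8 in DMSO kidneys, beside 4298 and 4415 of 18331 genes. The DMSO calls of Psma1 (log2 0.10, adjusted p = 0.689), Psma4 and Psma8 were the ones lost, and the GSK2830371 change of Psma1 was then -0.10. Psma5 (chr3:108256926-108279974, plus strand), a ring subunit, had normalised counts of 3261, 3037, 2491, 2146 and 2308 in GSK2830371 kidneys and 3989, 2752, 3272, 3681 and 2107 in DMSO kidneys, against 1383, 1188, 1490 and 1090 in controls. Every i-TERTci library lay above every control. The log2 change was 1.03 ± 0.19 (SE, adjusted p = 0.000504) in GSK2830371 kidneys and 1.27 ± 0.19 (adjusted p = 8.77e-05) in DMSO kidneys. Psma5 has a pseudogene, Psma5-ps, at 16 to 37 and 12 to 49 counts in GSK2830371 and DMSO kidneys, against 2 to 12 in controls, and reads of the pair may be shared.

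Psma4 (chr9:54950790-54958030, plus strand), another ring subunit, showed the smallest alpha change. It had 4634, 4414, 4949, 4363 and 3835 counts in GSK2830371 kidneys and 7732, 4683, 4644, 6426 and 4066 in DMSO kidneys, against 3953, 3649, 4352 and 3522 in controls. The groups overlapped in both comparisons. Its log2 change was 0.20 ± 0.18 (adjusted p = 0.374) in GSK2830371 kidneys and 0.47 ± 0.18 (adjusted p = 0.0367) in DMSO kidneys. Leaving out control replicate 1, 2 or 4, or DMSO replicate 1 or 4, ended the DMSO call (adjusted p 0.0607 to 0.0927). It also ended among Xist-positive libraries alone (adjusted p = 0.445), with Xist as a covariate (adjusted p = 0.175), in libraries of 31 days or fewer (adjusted p = 0.120), with the 2 groups fitted alone (adjusted p = 0.0692) and after GC centring (adjusted p = 0.174).

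Psma8 encodes the alpha subunit of the testis proteasome. It was barely detected, with 9, 12, 2, 10 and 8 normalised counts in GSK2830371 kidneys and 8, 13, 12, 4 and 9 in DMSO kidneys, against 3, 3, 1 and 4 in controls. GSK2830371 replicate 3 and DMSO replicate 4 were within or near the control range. Its log2 change was 1.26 ± 0.49 (adjusted p = 0.0459) in GSK2830371 kidneys and 1.49 ± 0.49 (adjusted p = 0.0200) in DMSO kidneys. Sycp3, a meiotic chromosome gene and a male germ cell marker, had 30 to 61 and 29 to 82 counts in GSK2830371 and DMSO kidneys, against 2 to 4 in controls, whereas Sycp1, a second such marker, stayed at 0 to 5 in all libraries. Any relation between Psma8 and these markers was not tested. Sycp3 overlaps exons of Chpt1, a gene on the other strand, by 660 of its 1264 exon bases. The part of this overlap in the Sycp3 counts was not tested. The GSK2830371 call for Psma8 was lost in 12 of 14 leave-one-out fits (highest adjusted p 0.132), those without DMSO replicate 4 and GSK2830371 replicate 3 being the exceptions, and the DMSO call ended on leaving out control replicate 3 (adjusted p = 0.0642). Both Psma8 calls also ended among Xist-positive libraries alone (adjusted p = 0.165 and 0.0721 in GSK2830371 and DMSO kidneys), with Xist as a covariate (adjusted p = 0.0717 and 0.0530) and after GC centring (adjusted p = 0.184 and 0.0995), and the GSK2830371 call with the 2 groups fitted alone (adjusted p = 0.0625) or a replicate block (adjusted p = 0.0618).

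Beta ring genes were called in both directions. Their counts, like those of the other subcomplexes, stand beside 24.3% of all genes called higher and 22.1% lower in GSK2830371 kidneys. For DMSO kidneys these shares were 25.2% and 23.1%. In GSK2830371 kidneys Psmb4 and Psmb7 rose, Psmb2 fell and 4 did not pass. In DMSO kidneys Psmb4, Psmb5 and Psmb7 rose, Psmb2 fell, and Psmb1, Psmb3 and Psmb6 did not pass (log2 changes 0.38, 0.16 and 0.15). The median log2 change of the 7 genes was 0.23 in GSK2830371 kidneys and 0.38 in DMSO kidneys.

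The 3 standard catalytic genes did not move by equal amounts, and the gap between Psmb7 and Psmb5 depended on GC centring. Psmb7 (chr2:38588036-38644087, minus strand) encodes the trypsin-like site and had 7399, 5645, 6218, 5149 and 4344 counts in GSK2830371 kidneys and 9089, 5206, 6140, 6798 and 4467 in DMSO kidneys, against 2574, 2330, 3257 and 2279 in controls. Every i-TERTci library lay above every control, with log2 changes of 1.13 ± 0.21 (adjusted p = 0.000435) in GSK2830371 kidneys and 1.25 ± 0.21 (adjusted p = 0.000176) in DMSO kidneys. Psmb5 (chr14:54614119-54618022, minus strand) encodes the chymotrypsin-like site and had 1753, 2300, 2117, 1761 and 1535 counts in GSK2830371 kidneys and 2870, 1763, 2491, 3652 and 1346 in DMSO kidneys, against 1445, 1199, 1569 and 920 in controls. The groups overlapped in both comparisons. Its log2 change was 0.57 ± 0.25 (adjusted p = 0.0709) in GSK2830371 kidneys and 0.86 ± 0.25 (adjusted p = 0.0104) in DMSO kidneys. Leaving out DMSO replicate 4 or 5, which enter the shared estimate of the spread, let the GSK2830371 change pass at an adjusted p of 0.0439 and 0.0367. It also passed in 5 other settings, GC centring (log2 1.01) among them. The DMSO call was lost among Xist-positive libraries alone (log2 0.29, adjusted p = 0.352) and with Xist as a covariate (log2 0.67, adjusted p = 0.0720). After GC centring the log2 changes of Psmb7 and Psmb5 were 1.05 and 1.01 in GSK2830371 kidneys. In DMSO kidneys they were then 1.12 and 1.28, both called higher.

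Psmb6 (chr11:70525367-70527858, plus strand) encodes the caspase-like site. It had 4672, 3930, 4171, 3822 and 3460 counts in GSK2830371 kidneys and 7352, 4098, 4050, 4932 and 3392 in DMSO kidneys, against 5100, 4271, 3832 and 3468 in controls. The groups overlapped, with log2 changes of -0.05 ± 0.20 (adjusted p = 0.861) in GSK2830371 kidneys and 0.15 ± 0.20 (adjusted p = 0.538) in DMSO kidneys. A ratio of reads within a library is free of the scaling between libraries. The ratios here and below were not centred by GC content, which was 48.7% in Psmb7, 56.6% in Psmb5 and 55.8% in Psmb6. Psmb7 had 1.26 to 1.58 reads per Psmb6 read in GSK2830371 kidneys and 1.24 to 1.52 in DMSO kidneys, against 0.505 to 0.850 in controls, with no overlap. Psmb5 had 0.375 to 0.585 and 0.390 to 0.740 reads per Psmb6 read in GSK2830371 and DMSO kidneys, against 0.265 to 0.410 in controls, with overlap.

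Psmb2 (chr4:126677630-126709714, plus strand), a beta subunit with no proteolytic site, went the other way. It had 2605, 2317, 2073, 1871 and 2030 counts in GSK2830371 kidneys and 3596, 2228, 2445, 2410 and 1706 in DMSO kidneys, against 4156, 3689, 3247 and 3418 in controls. All GSK2830371 libraries lay below all controls, and DMSO replicate 1 overlapped with them. Psmb2 had a log2 change of -0.74 ± 0.18 (adjusted p = 0.00379) in GSK2830371 kidneys and -0.59 ± 0.18 (adjusted p = 0.0145) in DMSO kidneys. At 31 days or fewer the GSK2830371 call was lost (log2 -0.65, adjusted p = 0.0662).

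**Figure D4:**
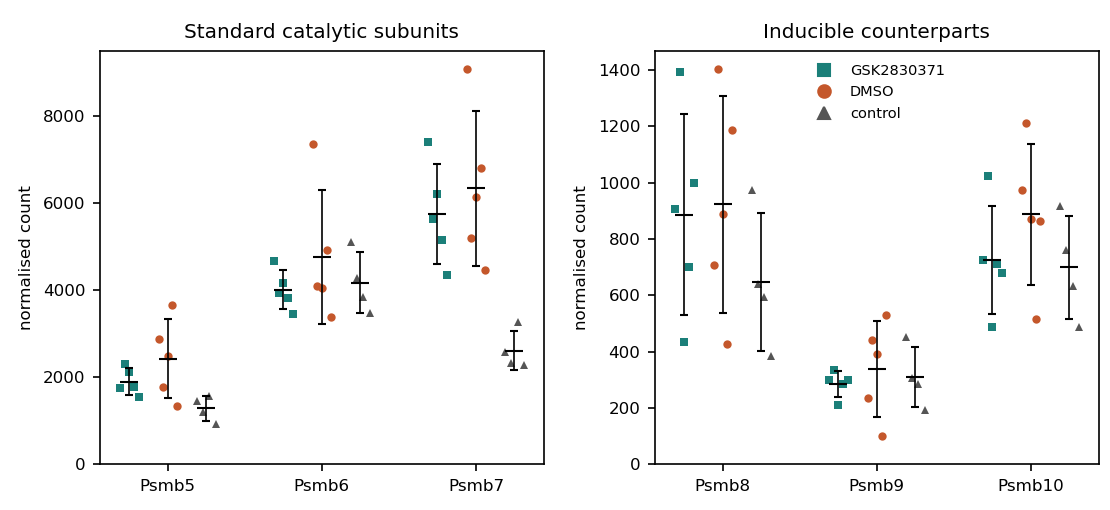
Normalised counts of the standard catalytic genes Psmb5, Psmb6 and Psmb7 (left) and of their inducible counterparts Psmb8, Psmb9 and Psmb10 (right), 1 point per library, with mean and SD (n = 5 GSK2830371, 5 DMSO and 4 control). Psmb7 is the gene whose i-TERTci libraries all lie above all controls.

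The inducible counterparts Psmb8, Psmb9 and Psmb10 replace Psmb5, Psmb6 and Psmb7 in the immunoproteasome, the form of the core that inflammatory signals raise. None of the 3 passed in either comparison, although after GC centring Psmb10 passed in DMSO kidneys (log2 0.75, adjusted p = 0.0205). Psmb8 had 906, 1395, 435, 700 and 999 counts in GSK2830371 kidneys and 709, 1403, 890, 428 and 1186 in DMSO kidneys, against 974, 638, 594 and 384 in controls. Its log2 change was 0.43 ± 0.37 (adjusted p = 0.358) in GSK2830371 kidneys and 0.47 ± 0.37 (adjusted p = 0.304) in DMSO kidneys, and the groups overlapped. Psmb10 had 488 to 1023 counts in GSK2830371 kidneys and 517 to 1212 in DMSO kidneys, against 487 to 916 in controls (log2 changes 0.05 and 0.33). Psmb9 had 210 to 334 and 98 to 528 counts in GSK2830371 and DMSO kidneys, against 192 to 453 in controls (log2 changes -0.07 and -0.02). Per read of its standard counterpart, Psmb10 had a median of 0.138 reads in GSK2830371 kidneys and 0.142 in DMSO kidneys, against 0.270 in controls. The ranges were 0.0785 to 0.181 and 0.0760 to 0.233 in GSK2830371 and DMSO kidneys, against 0.194 to 0.356 in controls. They overlapped for DMSO and did not for GSK2830371. Psmb8 per Psmb5 and Psmb9 per Psmb6 overlapped in both comparisons.

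In the ATPase ring, Psmc1, Psmc5 and Psmc6 rose in both groups, and Psmc2 and Psmc3 passed in neither (log2 changes -0.05 and 0.19 in GSK2830371 kidneys, 0.06 and 0.30 in DMSO kidneys). After GC centring Psmc3 passed in both (log2 0.58 and 0.63, adjusted p = 0.0196 and 0.0117, in GSK2830371 and DMSO kidneys). Psmc6 (chr14:45329788-45349705, plus strand), an ATPase of the ring, had 4802, 4486, 3938, 3956 and 3513 counts in GSK2830371 kidneys and 6979, 3692, 4655, 5555 and 3559 in DMSO kidneys, against 1606, 1747, 2505 and 1923 in controls. The groups did not overlap. In log2 terms Psmc6 was higher by 1.10 ± 0.20 (adjusted p = 0.000407) in GSK2830371 kidneys and 1.30 ± 0.20 (adjusted p = 9.73e-05) in DMSO kidneys. Psmc4 (chr7:28041707-28050101, minus strand), another ATPase of the ring, had 3746, 3434, 3108, 3314 and 2863 counts in GSK2830371 kidneys and 5453, 3262, 3425, 4561 and 2745 in DMSO kidneys, against 6103, 5043, 4149 and 4307 in controls. All GSK2830371 libraries lay below the controls, while the DMSO libraries overlapped with them. Psmc4 had a log2 change of -0.56 ± 0.19 (adjusted p = 0.0241) in GSK2830371 kidneys and -0.36 ± 0.19 (adjusted p = 0.129) in DMSO kidneys. The GSK2830371 call was lost without control replicate 1 or 2 or GSK2830371 replicate 5 (adjusted p 0.0554 to 0.0869), and the DMSO change passed without DMSO replicate 1 (adjusted p = 0.0306). The GSK2830371 call was also lost at 31 days or fewer (adjusted p = 0.120) and after GC centring (adjusted p = 0.0767), and the DMSO change passed among Xist-positive libraries alone (adjusted p = 0.0198).

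The other base subunits Psmd1, Psmd2 and Psmd4, of which Psmd4 is a ubiquitin receptor, had median log2 changes of 0.67 in GSK2830371 kidneys and 0.76 in DMSO kidneys. Psmd1 and Psmd2 rose in GSK2830371 kidneys, where Psmd4 had a log2 change of 0.43 (adjusted p = 0.0918), and all 3 rose in DMSO kidneys. After GC centring Psmd4 passed in GSK2830371 kidneys too (log2 0.62, adjusted p = 0.0314). Psmd1 (chr1:86064387-86139151, plus strand), the scaffold that docks ubiquitin receptors, had 7157, 6967, 5098, 5092 and 5042 counts in GSK2830371 kidneys and 7370, 5315, 6285, 7605 and 4201 in DMSO kidneys, against 2583, 2685, 3066 and 2993 in controls. The groups did not overlap. Its log2 change was 1.04 ± 0.18 (adjusted p = 0.000380) in GSK2830371 kidneys and 1.09 ± 0.18 (adjusted p = 0.000229) in DMSO kidneys.

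Apart from the scarce Psma8, the lid held the member with the largest log2 rise in both groups (Psmd14), and it held the member with the largest fall in DMSO kidneys (Psmd3). These ranks did not hold after GC centring. Psma5 then rose most, by 1.15 in GSK2830371 and 1.36 in DMSO kidneys, beside 0.81 and 1.06 for Psmd14. Psmb2 then fell most in DMSO kidneys, by -0.50 beside -0.16 for Psmd3. Psmd14, Psmd6 and Psmd13 rose in GSK2830371 kidneys and these 3 with Psmd12 in DMSO kidneys, Psmd3 fell in both, and Psmd7, Psmd8 and Psmd11 passed in neither. After GC centring Psmd7 passed in DMSO kidneys (log2 0.56, adjusted p = 0.0420). Psmd14 (chr2:61711694-61800376, plus strand), the deubiquitinase of the lid, had 2998, 2870, 2312, 2464 and 2202 counts in GSK2830371 kidneys and 4233, 2700, 3303, 3326 and 2189 in DMSO kidneys, against 1095, 953, 1299 and 1116 in controls. The groups did not overlap. The change was 2.30-fold in GSK2830371 kidneys (log2 1.20 ± 0.18, adjusted p = 8.70e-05) and 2.77-fold in DMSO kidneys (log2 1.47 ± 0.18, adjusted p = 1.41e-05).

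Psmd3 (chr11:98682554-98695979, plus strand), a structural lid subunit, had 9197, 8306, 8500, 6303 and 6800 counts in GSK2830371 kidneys and 8549, 7242, 7325, 8106 and 6405 in DMSO kidneys, against 11162, 13199, 11844 and 13239 in controls. Every i-TERTci library lay below every control. Psmd3 had a log2 change of -0.67 ± 0.15 (adjusted p = 0.00210) in GSK2830371 kidneys and -0.72 ± 0.15 (adjusted p = 0.00117) in DMSO kidneys. Psmd3 has the most GC-rich transcript of the 39, at 58.3%, and after centring within GC bins its log2 change was -0.12 (adjusted p = 0.600) in GSK2830371 kidneys and -0.16 (adjusted p = 0.468) in DMSO kidneys. Psmd14 had 0.272 to 0.391 reads per Psmd3 read in GSK2830371 kidneys and 0.342 to 0.495 in DMSO kidneys, against 0.0722 to 0.110 in controls. This ratio was not centred by GC content, which was 43.2% in Psmd14.

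On a scale per length, the lid genes stood closer together in i-TERTci kidneys. Between 8 lid genes, the SD of the log2 level (normalised counts per kilobase of exon) was 0.56 in GSK2830371 kidneys and 0.50 in DMSO kidneys, against 0.94 in controls. The most abundant lid gene per kilobase exceeded the least by 3.69-fold in GSK2830371 kidneys and 3.36-fold in DMSO kidneys, against 6.29-fold in controls. The highest level per kilobase was that of Psmd8 in both i-TERTci groups and that of Psmd3 in controls. These levels were not centred by GC content, after which the fall of Psmd3 did not pass, as given above. The beta ring had an SD of 0.50 and 0.54 in GSK2830371 and DMSO kidneys, against 0.71 in controls. The other base subunits had 0.73 and 0.75, against 0.98, and the activators 0.48 and 0.53, against 0.77. The alpha ring without Psma8 had 0.62 and 0.58, against 0.64, and the ATPase ring 0.92 and 0.88, against 0.93. The chaperones of the base spread more, at 0.95 and 1.21 against 0.36. Over all 38 members other than Psma8, the log2 level had an SD of 0.89 and 0.95 in GSK2830371 and DMSO kidneys, against 0.99 in controls.

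Of the chaperones that assemble the base, Psmd10 rose in both groups and Psmd5 and Psmd9 passed in neither. Psmd10 (chrX:140948429-140956728, minus strand), also known as gankyrin, had 1214, 1126, 914, 1021 and 850 counts in GSK2830371 kidneys and 1586, 1023, 1404, 1256 and 785 in DMSO kidneys, against 418, 396, 601 and 406 in controls. The groups did not overlap, and the log2 change was 1.18 ± 0.20 (adjusted p = 0.000300) in GSK2830371 kidneys and 1.39 ± 0.20 (adjusted p = 7.25e-05) in DMSO kidneys. Psmd5 had log2 changes of -0.07 and -0.12, and Psmd9 of 0.09 and -0.18, in GSK2830371 and DMSO kidneys.

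The activators bind the core in place of the regulatory particle. Psme1 and Psme2 form the interferon-inducible activator and lie side by side on chromosome 14. Psme2 (chr14:55587441-55591113, minus strand) had 2814, 3240, 2238, 2484 and 2390 counts in GSK2830371 kidneys and 3681, 3671, 2795, 2641 and 2929 in DMSO kidneys, against 1935, 1691, 1923 and 1369 in controls. The groups did not overlap, and the log2 change was 0.61 ± 0.16 (adjusted p = 0.00599) in GSK2830371 kidneys and 0.86 ± 0.16 (adjusted p = 0.000469) in DMSO kidneys. The related gene Psme2b had 158 to 196 and 154 to 269 counts in GSK2830371 and DMSO kidneys, against 21 to 61 in controls, so the split of reads between the pair is uncertain. Psme1 (chr14:55578123-55581529, plus strand) had 3119, 4076, 1971, 2420 and 3032 counts in GSK2830371 kidneys and 3508, 3886, 2617, 2419 and 2678 in DMSO kidneys, against 2063, 2211, 2209 and 1834 in controls. GSK2830371 replicate 3 overlapped with the controls and no DMSO library did. The log2 change was 0.45 ± 0.20 (adjusted p = 0.0718) in GSK2830371 kidneys and 0.52 ± 0.20 (adjusted p = 0.0406) in DMSO kidneys. Among Xist-positive libraries alone or with Xist as a covariate, the DMSO call was also lost (adjusted p = 0.0884 and 0.0946), and the GSK2830371 change passed in 4 settings, at 31 days or fewer (adjusted p = 0.0436) and after GC centring (adjusted p = 0.00422) among them. The DMSO call was lost without any 1 of the controls or without DMSO replicate 1 or 2 (adjusted p 0.0558 to 0.107), and the GSK2830371 change passed without GSK2830371 replicate 3 (adjusted p = 0.0202).

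Psme3 (chr11:101316213-101323537, plus strand) encodes the nuclear activator, which works without ubiquitin. It had 4597, 4782, 4222, 4630 and 3897 counts in GSK2830371 kidneys and 5342, 4249, 4226, 6383 and 3945 in DMSO kidneys, against 7605, 6403, 5226 and 7769 in controls. All GSK2830371 libraries lay below the controls, while DMSO replicates 1 and 4 exceeded control replicate 3. Psme3 had a log2 change of -0.60 ± 0.17 (adjusted p = 0.00910) in GSK2830371 kidneys and -0.49 ± 0.17 (adjusted p = 0.0248) in DMSO kidneys. The DMSO call was lost without control replicate 1 or 4 or DMSO replicate 2, 3 or 5 (adjusted p 0.0552 to 0.0804) and, at a log2 change of -0.40, after centring within GC bins (adjusted p = 0.0870). Fitted with the 2 groups alone it was also lost (adjusted p = 0.0532). Per Psme2 read, Psme3 had 1.48 to 1.89 reads in GSK2830371 kidneys and 1.16 to 2.42 in DMSO kidneys, against 2.72 to 5.67 in controls. Psme4, the activator linked to histone turnover, had log2 changes of 0.21 and 0.29 in GSK2830371 and DMSO kidneys and passed in neither.

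Between the treatments no member passed. GSK2830371 against DMSO gave 0 of 39 members in limma, beside 0% of all genes, and 0 members at an unadjusted p below 0.05, beside 4.25% of all genes (800 genes). Of all genes, edgeR called 0, with 871 at an unadjusted p below 0.05, and DESeq2 called 1, with 1014. Every member's groups overlapped, while 0.239% of all genes lay wholly higher and 0.245% wholly lower in GSK2830371 kidneys. The log2 change was negative for 36 of the 39, beside 51.1% of all genes, with a median of -0.15. Members share libraries, so this count describes the libraries and is not a test. With 1 library left out, 31 (without DMSO replicate 1 or 4) to 37 members were negative and the median lay between -0.28 (without DMSO replicate 5) and -0.05 (without DMSO replicate 1). Among Xist-positive libraries alone, 3 GSK2830371 libraries at 49 days and 2 DMSO libraries at 29 and 31 days, 3 members were negative and the median was 0.16. Among libraries at 31 days or fewer, 2 with GSK2830371 and 4 with DMSO, 29 were negative and the median was -0.07, and with Xist as a covariate 34 were negative and the median was -0.09.

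The 3 smallest p-values between the treatments belonged to Psma4, Psmd14 and Psme2. Psma4 averaged 4439 ± 409 counts in GSK2830371 kidneys and 5510 ± 1520 in DMSO kidneys, Psmd14 2569 ± 349 and 3150 ± 767, and Psme2 2633 ± 400 and 3144 ± 497 (SD, n = 5 each). Their log2 changes were -0.27 (95% interval -0.63 to 0.08), -0.27 (-0.62 to 0.09) and -0.25 (-0.57 to 0.07), each with an adjusted p of 0.994. Over all members the interval had a median half-width of 0.38. Psmd9, the chaperone, was the member with the highest log2 change, 0.27 (-0.10 to 0.65).

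Transcript GC content moved with the changes against controls. Over 18331 genes, the Spearman correlation between GC content and the log2 change was -0.26 in GSK2830371 kidneys and -0.27 in DMSO kidneys, and over the 38 members other than the scarce Psma8 -0.44 in both, as a description across genes that share libraries. With the genes ranked into 10 classes of GC content, the median DMSO change over all genes was 0.48 in the lowest class and -0.55 in the highest. The 24 members that rose in DMSO kidneys had a median GC content of 48.3%, the 3 that fell 51.0% and the 12 others 51.2%. After centring within bins, 20 members were called higher in GSK2830371 kidneys and 24 in DMSO kidneys, of which 15 and 21 were among those called before. Of 18331 genes, 4298 were then called higher and 3350 lower in GSK2830371 kidneys, and 4415 higher and 3598 lower in DMSO kidneys. Psmb6 then passed in DMSO kidneys (log2 0.58, adjusted p = 0.0305), and Psmb2 remained lower in both groups (log2 -0.64 and -0.50, adjusted p = 0.0149 and 0.0455, in GSK2830371 and DMSO kidneys).

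**Figure D5:**
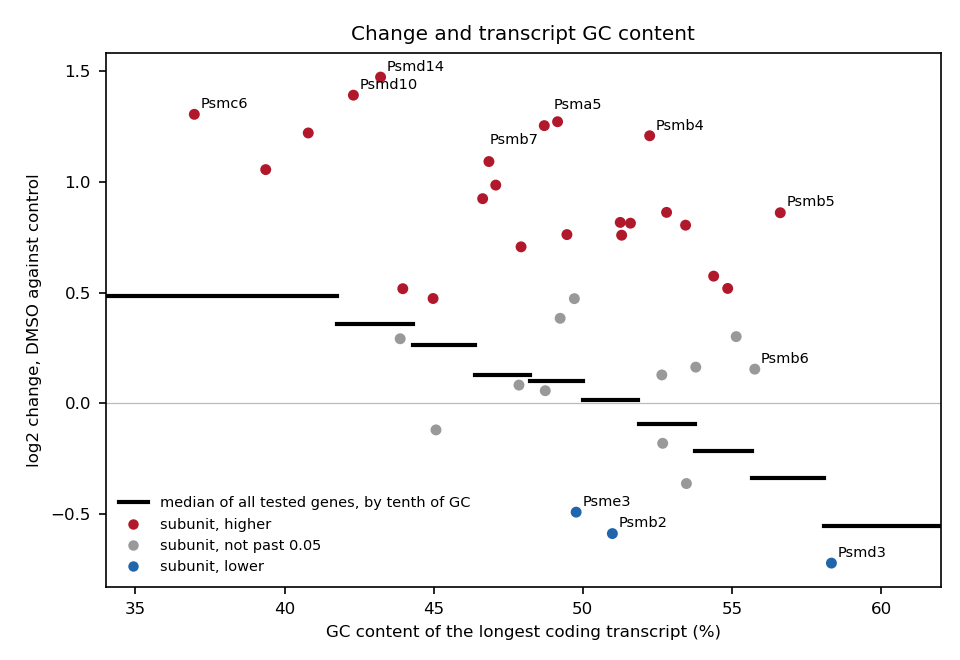
Log2 change in DMSO kidneys against control (vertical) and GC content of the longest coding transcript (horizontal) for 38 proteasome genes, with black bars for the median of all tested genes in each of 10 classes of GC content, the outermost bars being clipped at the axis. Most subunits lie above the bar of their class, and Psmd3 lies near it.

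Related genes were counted in 4 further lists, whose counts stand beside the 24.3% of all genes called higher and 22.1% called lower in GSK2830371 kidneys and the 25.2% and 23.1% in DMSO kidneys. The list named NRF1 axis held Nfe2l1 and genes for proteins that cut, clear or partner NRF1. It also held the related Nfe2l2, the NF-Y genes Nfya, Nfyb and Nfyc, and Hsp90b1. Of its 14 genes, 8 rose and 2 fell (Nfyc and Syvn1) in each comparison. Hsp90b1 and Nfyb were among the 8 in both comparisons, and Nfe2l2 in DMSO kidneys alone. Ddi2 passed in neither (log2 0.35 and 0.34, adjusted p = 0.135 and 0.153, in GSK2830371 and DMSO kidneys). Nfe2l1 had 18050, 19584, 18983, 15465 and 16346 counts in GSK2830371 kidneys and 18610, 15982, 14662, 13481 and 14035 in DMSO kidneys, against 8624, 12477, 11100 and 14071 in controls. The GSK2830371 libraries lay above all controls and the DMSO libraries overlapped with them. Its log2 change was 0.63 ± 0.17 (adjusted p = 0.00629) in GSK2830371 kidneys and 0.42 ± 0.17 (adjusted p = 0.0476) in DMSO kidneys. The DMSO call was lost in 11 of 14 leave-one-out fits (adjusted p up to 0.169, without control replicate 1), all but those without control replicate 4 or DMSO replicate 4 or 5. It was lost in 7 other settings as well, and the GSK2830371 call was lost at 31 days or fewer (adjusted p = 0.0700). Nfyc, a subunit of NF-Y, had 1249 to 2286 counts in GSK2830371 kidneys and 1353 to 1680 in DMSO kidneys, against 3632 to 4524 in controls (log2 -1.36 and -1.43, adjusted p = 1.54e-05 and 9.37e-06). Sel1l, of the ER degradation machinery, had the smallest p of this list between the treatments, with 6693 to 8871 counts in GSK2830371 kidneys and 5852 to 7067 in DMSO kidneys (log2 0.25, adjusted p = 0.994).

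Of 6 assembly factors and inhibitors of the core, 0 rose and 3 fell in GSK2830371 kidneys, and 1 rose and 2 fell in DMSO kidneys. Pomp, the chaperone that completes the core, had 2746, 2462, 2626, 2500 and 1909 counts in GSK2830371 kidneys and 4278, 2953, 2815, 3297 and 2277 in DMSO kidneys, against 2540, 1896, 2241 and 1807 in controls. The groups overlapped in both comparisons. The log2 change was 0.21 ± 0.18 (adjusted p = 0.350) in GSK2830371 kidneys and 0.54 ± 0.18 (adjusted p = 0.0202) in DMSO kidneys, and leaving out control replicate 2 or 4 ended the DMSO call, at adjusted p of 0.0625 and 0.0670. It also ended among Xist-positive libraries alone (adjusted p = 0.239), with Xist as a covariate (adjusted p = 0.0923) and in libraries of 31 days or fewer (adjusted p = 0.0642). Between the treatments Pomp differed by -0.33 on the log2 scale (95% interval -0.69 to 0.02). Psmf1, an inhibitor of the core, fell in both groups, with 1271 to 1693 and 1260 to 1834 counts in GSK2830371 and DMSO kidneys, against 1880 to 2184 in controls (log2 -0.47 and -0.45, adjusted p = 0.00979 and 0.0128), the GSK2830371 call being lost at 31 days or fewer (adjusted p = 0.132).

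Among 15 proteins that bind the proteasome or deliver substrates to it, 8 rose and 4 fell in GSK2830371 kidneys, and 8 rose and 3 fell in DMSO kidneys. Usp14, a deubiquitinase of the regulatory particle, had 1643 to 1896 counts in GSK2830371 kidneys and 1658 to 3074 in DMSO kidneys, against 981 to 1316 in controls. It rose in both without overlap (log2 0.58 and 0.87, adjusted p = 0.00987 and 0.000557). After GC centring the GSK2830371 call was lost (log2 0.32, adjusted p = 0.264). Ubqln4, a shuttle that carries ubiquitinated proteins, had 2228 to 3132 and 2413 to 3899 counts in GSK2830371 and DMSO kidneys, against 4631 to 7305 in controls. It fell in both without overlap (log2 -1.23 and -1.13, adjusted p = 7.86e-05 and 0.000146).

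Of 6 genes for ubiquitin and its activating enzymes, 1 rose (Rps27a) and 1 fell (Uba1, the main activating enzyme) in each comparison, near the share of all genes. Rps27a, which encodes ubiquitin fused to a ribosomal protein, had 8623 to 12514 counts in GSK2830371 kidneys and 9113 to 18606 in DMSO kidneys, against 3083 to 6013 in controls (log2 1.22 and 1.47, adjusted p = 0.000570 and 0.000114). Near-identical copies in the genome make its level uncertain.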

How the data were processed

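Total RNA from whole kidney was sequenced, per the labels' protocols. DESeq2, STAR, Trimmomatic and FastQC are named by the submitters' processing notes, as is mm10, with no version. Which counter, gene annotation and strand setting were used is not given in the sources used here. Deposited values are a normalised signal per gene: the authors divided read counts by 1 size factor per library. All values came out as whole reads, within 0.001, once divided by the step of their column. The 2 tables of 9 libraries share the 4 controls, whose recovered reads were identical (0 mismatches).

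The 14 libraries were scaled together by the median-of-ratios method, log2(value + 1) was taken, and genes were kept by filterByExpr (edgeR 4.0.16). One limma 3.58.1 fit by group, with a trend and robust moderation, gave two-sided tests, Benjamini-Hochberg adjusted over 18810 genes at 0.05. Fold changes are on the log2(value + 1) scale and understate low genes. The test was checked on simulated counts in which a small set of genes changed in the DMSO group alone. These counts had the same dispersion for every gene and no shift in GC content or library preparation. The check therefore does not cover the differences of the control libraries given above. Other scalings, filters and pseudocounts, each library left out, a replicate block, subsets by Xist and days, edgeR and DESeq2 1.42.0 on the recovered reads were tried, as was centring within 20 GC bins, which was added after seeing the data. R 4.3.3, Python 3.11.15 and matplotlib 3.10.9 were used. GENCODE M21 (GRCm38; 22780 genes matched, 96.2%) gave positions, exon lengths and GC content, and RefSeq the promoters. Psma8 was left out of values per kilobase and by GC content.

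Members and lists were chosen with earlier results of these data known. Values in every library are given for the member with the smallest p of each subcomplex and direction in each comparison with controls, the 3 smallest p between treatments, the catalytic, tissue-restricted and interferon-inducible members, and values in every library or their range, of each related list, for the smallest p in DMSO against control and in GSK2830371 against DMSO plus Nfe2l1, Pomp, Psmf1, Psmb8, Psmb9 and Psmb10; other genes named were chosen after their values were seen. Among the related genes, 1 that this naming rule picks is not reported here; all 39 members are. The labels number the mice of each group and give no litter or batch, so p-values measure the spread between these libraries.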

Additional observations from a re-analysis of the deposited data

Results flagged for a closer look

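Of 84 groups of values examined, 2 had a library far from the others of its group; chance alone flags about 1 in 20 groups. Psmd10 had 601 normalised counts in control replicate 3, against 396 to 418 in the other 3 controls, and still lay below all i-TERTci libraries. Ubqln4 had 3899 normalised counts in DMSO replicate 4, against 2413 to 2747 in the other 4 DMSO libraries, and still lay below all controls.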

How the results depend on the processing

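Of the members called against controls, 15 higher and 1 lower (Psme3) in GSK2830371 kidneys and 12 higher and 1 lower (Psmb2) in DMSO kidneys were called under every alternative run. With 1 library left out, 16 to 19 members were higher and 3 to 4 lower in GSK2830371 kidneys (7173 to 9107 genes of all called), and 20 to 26 higher and 2 to 4 lower in DMSO kidneys (7561 to 9146 genes). The Xist-positive libraries alone gave 12 members higher in DMSO kidneys, and the libraries at 31 days or fewer gave 2 lower in GSK2830371 kidneys (Psmd3 and Psme3). GC centring gave 2 lower in GSK2830371 and 1 in DMSO kidneys, beside 3350 and 3598 of 18331 genes. Between the treatments, all genes called numbered 2 in Xist-positive libraries, 1 in DESeq2 and 0 in every leave-one-out fit. Scaling to reads outside mitochondrial genes moved the median of all genes by 0.11 (GSK2830371) and 0.12 (DMSO), and gave 24 and 28 members higher with 5077 genes up and 3287 down, and 5303 up and 3368 down, in place of 4568 and 4148, and 4742 and 4337. Signs of called members held under each scaling.

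The replicate block gave 21 higher and 4 lower in GSK2830371 kidneys and 27 higher and 3 lower in DMSO kidneys (9248 and 9589 genes of all). Whether equal numbers pair the mice is not given in the labels and was not tested. Of 13 same-numbered pairs 4 had deviations correlated above 0.1 (median 0.061, highest 0.335), beside a median of -0.014 for other pairs. Of 14 libraries, 6 correlated best with their own number.

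Values near 0 turned sign. Psmb6 in DMSO kidneys was -0.15 in Xist-positive libraries and -0.00078 with Xist as a covariate, and in GSK2830371 kidneys 0.063 with non-mitochondrial scaling, 0.033 with the block and 0.39 with GC centring; with 1 library left out it ran from -0.015 to 0.26 and from -0.13 to 0.055. Psmb9 in DMSO kidneys was 0.10 with non-mitochondrial scaling, 0.71 in Xist-positive libraries, 0.30 with the covariate, 0.37 at 31 days or fewer, 0.13 in edgeR, 0.12 in DESeq2 and 0.31 with GC centring, and -0.23 to 0.37 with 1 library left out. In GSK2830371 kidneys it was 0.043, 0.15 (covariate), 0.017 (31 days or fewer), 0.32 (GC) and -0.27 to 0.14. Psmb10 ran from -0.11 to 0.20 there. Between the treatments, Xist-positive libraries gave 0.066 for Psma4, 0.062 for Psmd14 and 0.0085 for Usp14. The cause was not tested.

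Precision is limited by 4 or 5 mice a group, and Psma8 by its 1 to 13 counts.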
